A study of Mus musculus with 12 samples.

Results

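MIN6 is a murine β-cell line derived from a tumour that a T-antigen transgene of SV40 produced in the islets, and clone 4 is 1 clone, grown out by dilution cloning from the early parental culture. The parental culture after 17 to 20 passages, called Pr-LP, and clone 4 cells at the same passages, called C4-LP, both answered glucose with insulin secretion, and both were grown in the same medium with a high glucose concentration. In the study the secretory response of C4-LP to glucose was better than that of Pr-LP. Their difference in transcript levels was followed here over 6 of the 12 arrays of the study, 1 array for each population on each chip (named A, B and C) of a murine Affymetrix set, U74 version 2. The other 6 arrays hold parental cells at passages 35 to 40 (Pr-HP), which no longer answered glucose, and clone 4 cells at passages 40 to 50 (C4-HP), which did. All 4 populations carry the same transgene.

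Without a second array of either population there was no test, no standard error and no p-value, and each ratio compares 1 RNA sample with 1 other. In RNA of a whole culture, fewer cells that express a gene and less RNA per cell cannot be told apart. Apart from controls the chips carry 36701 probe sets, of which 23425 reached 100 intensity units in Pr-LP or C4-LP. More than 3-fold higher in C4-LP were 118 of these (0.504%), and more than 3-fold lower were 48 (0.205%). With 1 probe set for each gene and values under the 20th percentile of a chip raised to this floor, 12595 genes were measured, of which 226 (1.79%) were past 2-fold higher in C4-LP and 147 (1.17%) past 2-fold lower. The remaining 97.0% lay within 2-fold, and the median log2 ratio of all genes was -0.01, so that the arrays were centred on each other. Each count on a gene list below is to be read beside the shares of 1.79% and 1.17%.

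The precision of a ratio was judged in 3 ways. The 36 control probe sets above 100 units on each chip were hybridised on all 3 chips, and the SD of their log2 ratio over the chips had a median of 0.10 and reached 0.25. The SD between different probe sets of 1 gene had a median of 0.14 over 4793 genes, with a 90th percentile of 0.35. The 9 probe sets for bacterial and phage spike-in RNA, which should not differ between cells, had a median log2 ratio of 0.29, 0.13 and 0.01 on the 3 chips in that order. Ratios on chip A thus carry an offset of this size in the spike-in RNA, and its part in the results was not tested. These spreads cover the hybridisation and the probes, not the culture.

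A secreted protein such as proinsulin enters the endoplasmic reticulum (ER) during its synthesis, is glycosylated and folded there with the help of chaperones and disulfide isomerases, and moves to the Golgi in COPII-coated vesicles. Chaperones that escape are brought back by KDEL receptors in COPI-coated vesicles, and proteins that fail to fold are sent out of the ER for degradation. β cells rely on this route more than most cells. When unfolded proteins build up, the sensors Ern1 (IRE1), Eif2ak3 (PERK) and Atf6 start the unfolded protein response, which through Xbp1 and Atf6 raises transcription of the chaperone genes, in many cases through the ER stress element, a CCAAT and a CCACG kept 9 bases apart.

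The promoters of 5 genes with this element are shown, so that the values of the chaperone genes can be read beside the sequence known from this response. They are the 5 such genes with the highest ratio of C4-LP to Pr-LP, and each line gives the 200 bases before the start of the gene (RefSeq, mouse build GRCm38.p6), with CCAAT and CCACG of the element in capitals. In Derl3 and Creld2 the element lies on the other strand and reads as CGTGG, 9 bases, ATTGG.
Dnajc3, chr14:118937732-118937931, plus strand: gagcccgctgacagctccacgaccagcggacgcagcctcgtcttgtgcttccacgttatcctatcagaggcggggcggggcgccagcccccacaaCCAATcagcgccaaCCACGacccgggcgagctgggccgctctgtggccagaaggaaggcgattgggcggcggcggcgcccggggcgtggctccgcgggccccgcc
Derl3, chr10:75893198-75893397, plus strand: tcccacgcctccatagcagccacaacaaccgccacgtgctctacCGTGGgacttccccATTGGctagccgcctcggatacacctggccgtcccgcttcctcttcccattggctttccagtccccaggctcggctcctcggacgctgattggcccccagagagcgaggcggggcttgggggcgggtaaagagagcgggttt
Creld2, chr15:88819446-88819645, plus strand: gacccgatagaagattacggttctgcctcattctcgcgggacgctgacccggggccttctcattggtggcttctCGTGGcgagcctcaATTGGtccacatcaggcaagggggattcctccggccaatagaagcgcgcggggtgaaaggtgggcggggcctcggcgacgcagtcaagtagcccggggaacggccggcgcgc
Pdia6, chr12:17266389-17266588, plus strand: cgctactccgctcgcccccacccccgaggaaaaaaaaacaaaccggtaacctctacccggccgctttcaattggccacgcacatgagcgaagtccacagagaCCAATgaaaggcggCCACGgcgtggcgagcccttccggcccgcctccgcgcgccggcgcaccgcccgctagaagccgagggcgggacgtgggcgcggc
Hspa5, chr2:34771890-34772089, plus strand: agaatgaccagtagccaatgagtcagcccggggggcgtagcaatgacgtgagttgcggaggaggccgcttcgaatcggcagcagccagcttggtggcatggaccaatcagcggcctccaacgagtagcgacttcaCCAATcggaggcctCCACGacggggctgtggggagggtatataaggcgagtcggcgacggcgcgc
Dnajc3, an Hsp40 cochaperone that also restrains PERK, had 363 units in Pr-LP and 939 in C4-LP (2.59-fold). Derl3, a derlin of the degradation channel, had 260.5 units in Pr-LP and 619 in C4-LP (2.38-fold). Creld2, a disulfide isomerase-like protein induced by ER stress, had 715 units in Pr-LP and 1655 in C4-LP (2.32-fold). Pdia6, a disulfide isomerase, had 1707 units in Pr-LP and 3907 in C4-LP (2.29-fold), and Hspa5, the Hsp70 of the ER known as BiP, had 2547 units in Pr-LP and 4840.3 in C4-LP (1.9-fold), just short of 2-fold. Their direction follows from the choice of the highest ratios, and all genes with the element are counted next.

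A promoter of 300 bases, from 250 before to 50 after the start, was found for 10076 of the measured genes, and 16 of these (0.159%) held the exact element on either strand. Of the 16, 4 (25.0%) were past 2-fold higher in C4-LP and 0 past 2-fold lower, where 1.82% and 1.15% of all genes with a promoter were. In all, 12 had a ratio above 1 and 4 below, and their median log2 ratio was 0.21, against -0.01 for all genes with a promoter. The element was in 7 of the 30 chaperone genes with a promoter, and these 7 include Hsp90b1 (3312 against 5242 units, 1.58-fold), the Hsp90 of the ER, and calnexin, Canx, with 1067 against 1158 units, a log2 ratio of 0.12. Outside the secretory pathway genes with the element lay near or below a log2 ratio of 0, for example Adcy3 at 0.07 and Zfp57 at -0.47. The motif CCACG alone, which is also part of the full one, was in 50.2% of the promoters, and 2.39% of those genes were past 2-fold higher and 1.23% lower. The octamer TGACGTGG, whose reverse strand holds CCACG, was in 1.11% of all promoters and in 8 of 55 genes (14.5%) of the KDEL receptor and coat list. The cyclic AMP response element TGACGTCA was in 3.21% of promoters. Of the genes with the octamer 2.68% were past 2-fold higher and 1.79% lower, and of those with the cyclic AMP element 1.86% and 0.929%. The amino acid response sequences TGATGCAAT or TTGCATCA were in 9 of the 33 ATF4 target genes with a promoter (27.3%) and in 0.685% of all. Of the genes with either sequence 4.35% were past 2-fold higher and 4.35% lower.

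**Figure D1:**
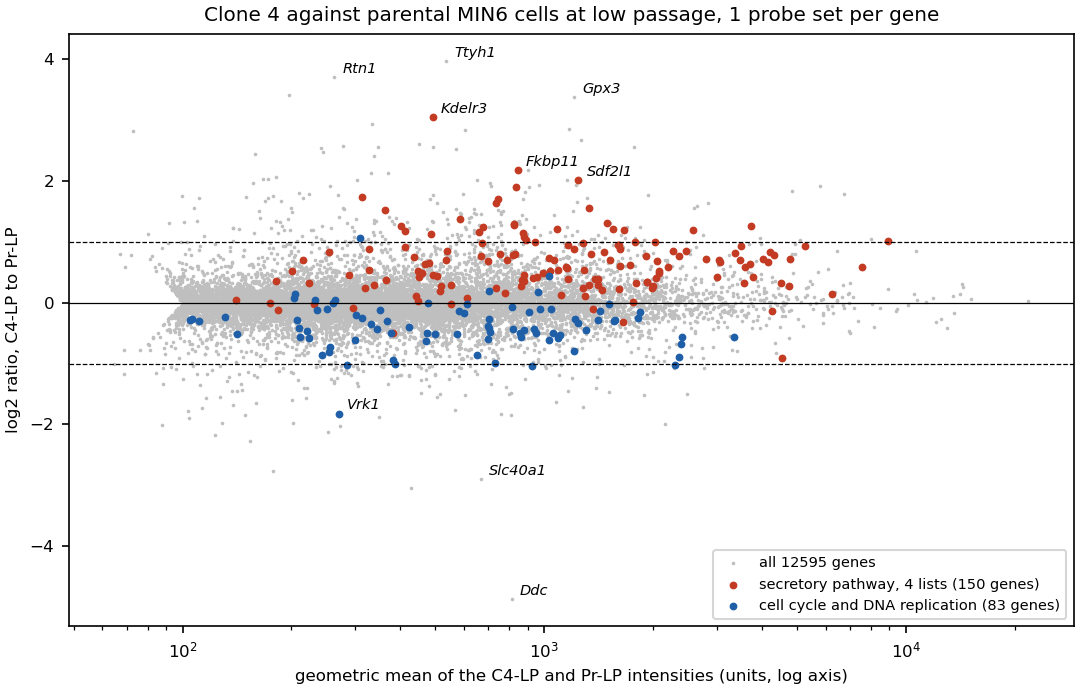
Each point is 1 gene, with the geometric mean of its C4-LP and Pr-LP intensities (units, log axis) on the horizontal axis and the log2 ratio of C4-LP to Pr-LP on the vertical axis. Dashed lines mark 2-fold. Genes of the 4 secretory pathway lists (red, 150 genes) lie mostly above 0 at every level, and cell cycle genes (blue, 83 genes) mostly below.

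Secretory pathway genes as a whole were higher in C4-LP. Of 150 measured genes on 4 lists (chaperones and folding enzymes, translocation and glycosylation, ER-associated degradation, and KDEL receptors with vesicle coats), 140 had a ratio above 1, 27 were past 2-fold higher and 0 past 2-fold lower, with a median log2 ratio of 0.62. Among all genes 48.1% had a ratio above 1. The shift was broad, and for most members smaller than 2-fold. On chips A, B and C alone the median of the chaperones was 0.68, 0.57 and 0.34 over 30, 10 and 2 genes, and that of the receptors and coats 0.71, 0.52 and 0.13 over 52, 29 and 11 genes. The median of ER-associated degradation was 0.51, 0.39 and -0.03 over 14, 13 and 5 genes. These shifts were widest on chip A, which had the largest spike-in offset. For translocation and glycosylation chips A and B were alike, with medians of 0.66, 0.66 and 0.38 over 26, 11 and 8 genes.

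Of 34 chaperones and folding enzymes, 32 were above 1 and 10 past 2-fold (29.4%), with a median log2 ratio of 0.69. Fkbp11, a prolyl isomerase of secretory cells, was highest at 398 units in Pr-LP and 1792 in C4-LP (4.51-fold), and its second probe set, on chip B, had 213 against 672 units (3.16-fold). Sdf2l1, a component of BiP complexes, followed with 618 against 2495 units (4.04-fold), then the ER Hsp40 proteins Dnajb9 (432 against 1609 units, 3.73-fold) and Dnajb11 (172 against 571 units, 3.32-fold). Manf, a secreted factor that binds BiP, and the disulfide isomerases Pdia4 and Erp44 were 2.29-fold, 2.21-fold and 2.18-fold higher. The 2 members below 1 were P4hb, the classical protein disulfide isomerase (4455 against 4066 units, log2 -0.13), and Sil1, the nucleotide exchange factor of BiP (log2 -0.12).

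All 31 measured genes of translocation and glycosylation were above 1 and 5 past 2-fold (16.1%), with a median log2 ratio of 0.63. Alg5, which makes the glucose donor for N-glycans, had 214 against 615 units (2.88-fold). Ssr3 and Ssr1, subunits of the translocon-associated protein complex, had 2414 against 5780.2 units (2.39-fold) and 439 against 1039.8 units (2.37-fold). Dad1, a subunit of oligosaccharyltransferase, had 6271 against 12670.4 units (2.02-fold), and its partners Ddost and Rpn1 lay just under the limit, at log2 0.99 and 0.99. In ER-associated degradation 20 of 22 genes were above 1 and 3 past 2-fold (median log2 0.44): the mannosidase-like Edem2 (779 against 2284 units, 2.93-fold), the lectin Erlec1 (527 against 1293 units, 2.46-fold) and Derl3.

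Between ER and Golgi, 57 of 63 genes were above 1 and 9 past 2-fold (14.3%), with a median log2 ratio of 0.68. Kdelr3, one of the receptors that return KDEL proteins, had 171 units in Pr-LP, 1409.6 in C4-LP, 69.1 in Pr-HP and 487 in C4-HP. It was 8.23-fold higher in C4-LP by this probe set on chip A and 3.7-fold by another on chip B (99.3 against 367 units). The other receptors differed less, with 3136 against 5167 units for Kdelr1 (log2 0.72) and 293 against 347 units for Kdelr2 (log2 0.24). Copz2, a COPI coat subunit, was 3.25-fold higher, Uso1, the tether p115, 2.41-fold, Bet1, a SNARE of this step, 2.25-fold, and the cargo receptors Lman2, Tmed9 and Mcfd2 2.23-fold, 2.11-fold and 2.03-fold. Tgoln1, a protein of the trans-Golgi network, was past 2-fold by each of its 5 measured probe sets, from 2.13 to 3.07-fold. Against this direction went Arf5, a small GTPase of the Golgi, with 6211 against 3313 units (log2 -0.91).

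The regulators of the response had a lower median than the chaperones. Of 17 sensors and transcription factors 15 were above 1, with a median log2 ratio of 0.38, and 1 was past 2-fold, the ER-anchored factor Creb3l3 (489 against 1183 units, 2.42-fold). Xbp1 had 901 against 1493 units (log2 0.73), Ern1 590.4 against 1033 units (log2 0.81) and Atf6 203 against 315 units (log2 0.63). Atf4, the factor downstream of PERK, had 1881 against 2108 units (log2 0.16), and Ddit3 (CHOP) had 358 against 466 units (log2 0.38). Of 39 ATF4 targets and amino acid supply genes, 32 were above 1 and 4 past 2-fold: the mitochondrial folate enzyme Mthfd1l (187 against 486 units, 2.6-fold), the proline synthesis enzyme Aldh18a1 (2.4-fold), the isoleucyl-tRNA synthetase Iars (2.16-fold) and the tRNA exporter Xpot (2.15-fold). The cytosolic heat shock genes did not share the shift, with a median log2 ratio of 0.04 over 37 genes. There the cochaperone Bag3 was higher (268 against 874 units, 3.26-fold), while the inducible Hsp70 genes Hspa1a (383 against 184 units, 2.08-fold) and Hspa1b (233 against 85.6 units, 2.72-fold) were lower. These Hsp70 genes are nearly identical and may share reactions with each other's probes.

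**Figure D2:**
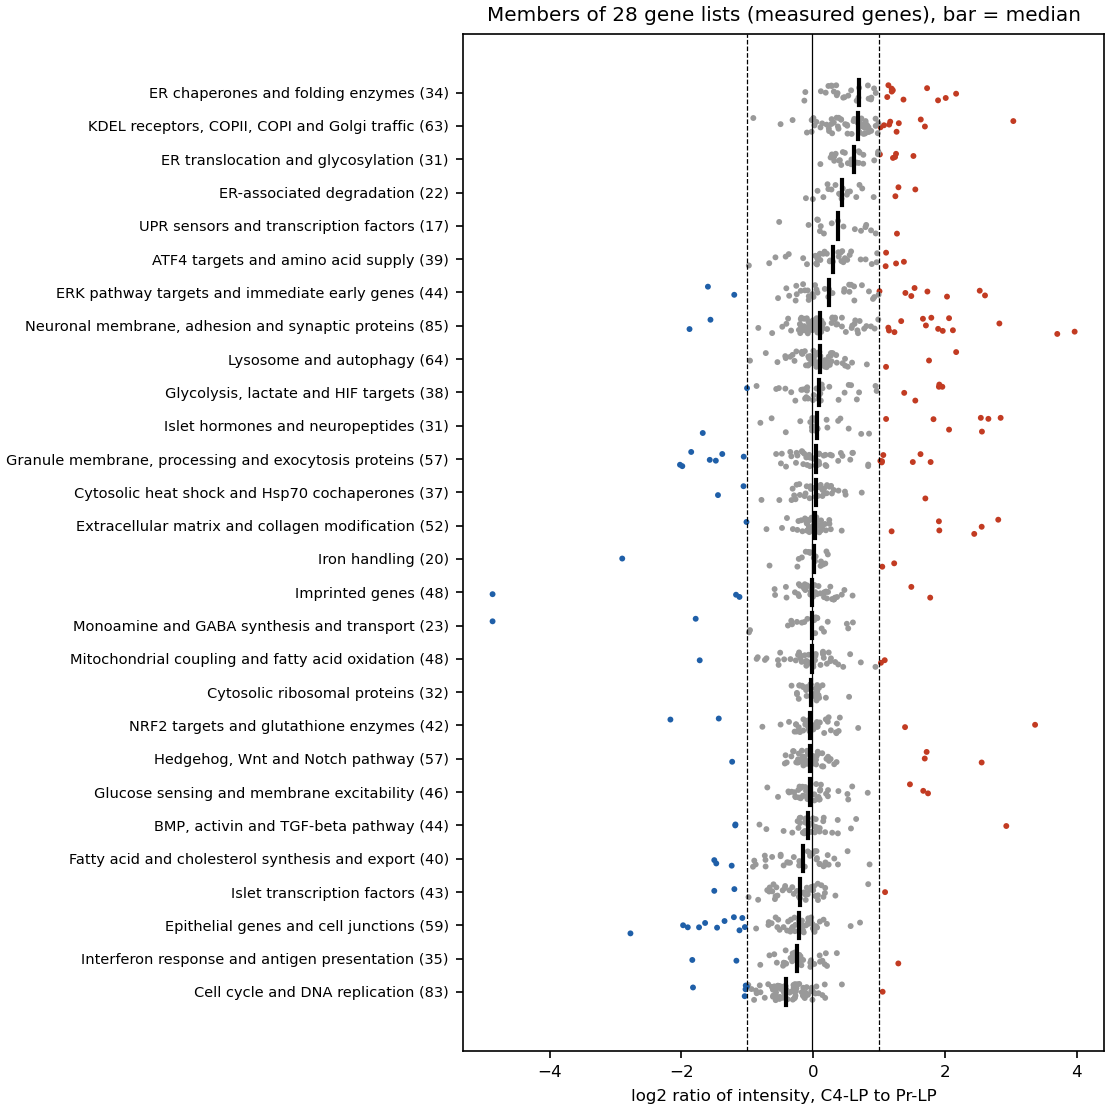
Each point is 1 measured gene of the list named at the left, with the number measured in parentheses, placed at its log2 ratio of C4-LP to Pr-LP. Black bars are medians, dashed lines mark 2-fold, red points are past 2-fold higher and blue points past 2-fold lower, and the 4 secretory pathway lists have medians from 0.44 to 0.69 while the cell cycle list has the lowest, -0.42.

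Genes of the cell cycle and of DNA replication went the other way. Of 83 measured genes 75 were lower in C4-LP, with a median log2 ratio of -0.42. Past 2-fold, 5 were lower (6.02%) and 1 higher (1.20%), where 1.17% and 1.79% of all genes were. Vrk1, a chromatin kinase of proliferating cells, had 508 against 143 units (3.54-fold lower). Mcm7, part of the replicative helicase, had 1325 against 645 units (2.05-fold lower), and the log2 ratios of Mcm2 to Mcm7 ran from -1.04 to -0.01. Ccnb2, a mitotic cyclin, had 3274 against 1609 units, Bub1b, a spindle checkpoint kinase, 406 against 199.8 units and Kif2c, a kinesin that depolymerises microtubules, 549 against 273 units, which were 2.04-fold, 2.03-fold and 2.01-fold lower. Mki67, the usual marker of cycling cells, had 773 against 639 units (log2 -0.27), inside the 90th percentile of the SD between probe sets. By chip the median of the list was -0.42 on A, -0.31 on B and -0.16 on C, over 73, 10 and 15 genes. Ccng1, a cyclin induced by p53, was higher (215 against 447 units, 2.08-fold). The 32 cytosolic ribosomal protein genes had a median log2 ratio of -0.04 and 0 past 2-fold.

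Some immediate early genes and negative feedback genes of the ERK pathway were among the larger differences. Growth factor and calcium signals reach ERK in β cells, and active ERK induces its own phosphatases and Sprouty proteins. Of 44 genes 8 were past 2-fold higher (18.2%) and 2 lower (4.55%), where 1.79% and 1.17% of all genes were. As a list they shifted little, with 29 above 1, 15 below and a median log2 ratio of 0.25. Dusp6, a phosphatase that inactivates ERK, had 182 units in Pr-LP, 1113 in C4-LP, 325 in Pr-HP and 247 in C4-HP (6.11-fold higher in C4-LP), and a second probe set had 244 against 498 units, 2.04-fold. Etv5, an ETS factor induced by ERK, had 101 units in Pr-LP, 581 in C4-LP, 379 in Pr-HP and 228 in C4-HP (5.78-fold). Fos, a subunit of the AP-1 factor, had 85.2 against 349 units (4.09-fold), the nuclear phosphatase Dusp4 334 against 971 units (2.91-fold), the feedback inhibitor Spry2 228 against 603 units (2.64-fold) and its relative Spred2 96.9 against 195 units (2.01-fold). Nr4a2 and Crem, both induced by cyclic AMP, were 3.33-fold and 2.81-fold higher. Rasd1, a Ras-related protein (349 against 115 units, 3.02-fold), and Klf10 (642 against 280.0 units, 2.29-fold) were lower. Dusp6, Etv5, Dusp4 and Spry2 were highest in C4-LP of all 4 populations.

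By the probe set that stood for each gene, epithelial genes and junction proteins past 2-fold were all lower in C4-LP. Another probe set of Cdh13, a cadherin on this list, was higher in C4-LP in the study's own listing. Of 59 measured genes 11 were past 2-fold lower (18.6%) and 0 higher, where 1.17% and 1.79% of all genes were. In all, 47 were below 1, with a median log2 ratio of -0.21. With the floor raised to the 40th percentile of the chip 6 were past 2-fold lower, and Esrp1 no longer was (log2 -0.72). Cd9, a tetraspanin, had 465 units in Pr-LP, 68.1 in C4-LP, 61.5 in Pr-HP and 72.4 in C4-HP (6.83-fold lower in C4-LP), so that Pr-LP stood apart from the other 3. Spint1, an inhibitor of membrane serine proteases, had 401 against 102 units (3.93-fold), while a second probe set of it on chip B had a log2 ratio of -0.16. Esrp1, an epithelial splicing regulator, had 251 units in Pr-LP, 43.1 in C4-LP, 327 in Pr-HP and 45.4 in C4-HP (at least 3.74-fold), which set both clone 4 arrays below both parental arrays. The keratins Krt19 (223 against 57.6 units, at least 3.32-fold) and Krt18 (181 against 88.4 units, 2.05-fold), the claudins Cldn3 (228 against 82.9 units, 2.75-fold) and Cldn4 (575 against 250.2 units, 2.3-fold), plakoglobin, Jup (1470.5 against 699 units, 2.1-fold), and the photoreceptor cadherin Cdhr1 (1903 against 611 units, 3.11-fold) were also lower. E-cadherin, Cdh1 (731 against 694 units), and Epcam (433 against 436 units), which define epithelial cells, differed by log2 ratios of -0.07 and 0.01. Vim, a mesenchymal marker, had 124 against 109 units (log2 -0.19).

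Genes of neuronal membranes, adhesion and synapses were past 2-fold higher in 14 of 85 cases (16.5%) and lower in 2 (2.35%). Over all genes these shares were 1.79% and 1.17%. The median log2 ratio of the list was 0.11. β cells share many of these proteins with neurons. Ttyh1, a membrane protein related to volume-regulated anion channels, had 135 units in Pr-LP, 2120.3 in C4-LP, 206 in Pr-HP and 948 in C4-HP (15.7-fold higher in C4-LP), and a second probe set had 197 against 1277 units (6.5-fold). Rtn1, a reticulon that shapes the ER of neuroendocrine cells, had 72.6 units in Pr-LP, 949 in C4-LP, 936 in Pr-HP and 490.2 in C4-HP (13.1-fold), and a second probe set on chip C had 169 against 409.6 units (2.42-fold). Slitrk5, a synaptic adhesion protein, had 227 against 1611 units (7.1-fold), Ptprz1, a receptor phosphatase, 177 against 772 units (4.36-fold) and Ntrk2, the receptor of BDNF, 469 against 1749 units (3.73-fold). Gria3, Olfm1, Gap43, Nrcam, Dcx, Slit1, Syp and Ngfr were between 2.21-fold and 3.92-fold higher, and Cbln2 was 4.18-fold higher. Uchl1, a ubiquitin hydrolase of neurons (867 against 295 units, 2.94-fold), and the teneurin Tenm3 (668 against 182 units, 3.67-fold) were lower.

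Hormone genes other than insulin differed strongly in a few cases. Of 31 hormones and neuropeptides 7 were past 2-fold higher (22.6%) and 1 lower (3.23%), where 1.79% and 1.17% of all genes were. Ttr, transthyretin, which islet α cells make in quantity, had 435 units in Pr-LP, 3135 in C4-LP, 248 in Pr-HP and 1362 in C4-HP (7.2-fold higher in C4-LP). Gcg, proglucagon, had 502 units in Pr-LP, 3175 in C4-LP, 10552 in Pr-HP and 2915 in C4-HP (6.33-fold), and its chip A probe set had 50.6 against 346 units (at least 5.14-fold). Both genes were on the list of α-cell markers, though in Pr-HP Gcg was highest and Ttr lowest of the 4 populations. The third measured α-cell marker, the factor Irx1, had 266 against 475 units (log2 0.84). The study listed another probe set of Irx1 as higher in C4-LP. Of 9 α-cell markers 6 had a probe set and 3 of these were under 100 units in both populations, and the summed level of the 6 was 1335 units in Pr-LP, 6951 in C4-LP, 11180 in Pr-HP and 4711 in C4-HP. Pdyn, prodynorphin, had 735 against 4297 units (5.84-fold), Nucb2, the precursor of nesfatin, 114 against 674 units (5.91-fold) and Vgf, a granin-like neuropeptide precursor, 2575 against 9145 units (3.55-fold). Nucb1 was 2.16-fold higher, and Rbp4, the retinol carrier, was lower (247 against 77.4 units, 3.19-fold).

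The main β-cell products measured here differed little. Ins1 was not among the genes measured here, and the study's own array values for it were close in Pr-LP and C4-LP. Ins2 had 14771 against 15461 units (log2 0.07) by a probe set near the top of the chip's range, where a difference may be compressed, and Iapp, amylin, had 8291 against 9641 units (log2 0.22). The glucose transporter Slc2a2 had 478 against 464 units (log2 -0.04), the KATP channel subunits Kcnj11 816 against 1171 units (log2 0.52) and Abcc8 1185 against 1548 units (log2 0.38), and the prohormone convertase Pcsk1 425 against 759.8 units (log2 0.84). Of 10 measured β-cell markers 1 was past 2-fold, the factor Neurod1, which was lower (604 against 264 units, 2.29-fold). Islet transcription factors as a list leaned the same way, with 30 of 43 below 1, a median log2 ratio of -0.20, 2 past 2-fold lower and 1 higher. The second lower one was Mlxipl, the glucose-responsive factor ChREBP (1344 against 475 units, 2.83-fold), and the higher one was Bhlha15 (MIST1), a factor of cells with a large secretory apparatus (244 against 522 units, 2.13-fold). Pdx1, the main activator of β-cell genes, had 701 against 592 units (log2 -0.25), Nkx2-2 2409 against 1613 units (log2 -0.58) and Pax6 942 against 621 units (log2 -0.60).

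Among granule and exocytosis proteins 7 of 57 were past 2-fold higher and 7 lower (12.3% each way), around a median log2 ratio of 0.04. Over all genes these shares were 1.79% and 1.17%. Higher were Ptprn, the granule membrane protein IA-2 (3638 against 12536 units, 3.45-fold), the synaptotagmins Syt4 (1609 against 4983 units, 3.1-fold) and Syt5 (2.09-fold), the SNARE proteins Snap25 (442 against 1262 units, 2.86-fold) and Vamp2 (1329 against 2699 units, 2.03-fold), the priming factor Unc13a (2.06-fold) and the GTPase Rab3d (2.07-fold). Lower were granuphilin, Sytl4 (1539 against 427 units, 3.61-fold), Rph3al, or Noc2 (1263 against 486 units, 2.6-fold), the GTPase Rab37 (377 against 127 units, 2.97-fold) and the calcium sensor secretagogin, Scgn (4283 against 1082 units, 3.96-fold). Mreg, a melanosome transport protein (548 against 135 units, 4.06-fold), the carboxypeptidase Cpm (759 against 273 units, 2.78-fold) and Stxbp3, a syntaxin-binding protein (139.6 against 61.9 units, at least 2.07-fold), were also lower. In glucose sensing and excitability 3 of 46 were past 2-fold higher (6.52%) and 0 lower. The 3 were the calcium buffer Calb1 (44 against 226 units, at least 3.35-fold), the phosphodiesterase Pde1c (94.8 against 302 units, 3.19-fold) and the kinase Camk2d (352 against 976 units, 2.77-fold).

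Several metabolic genes with a known place in β cells differed. Over all genes 1.79% were past 2-fold higher and 1.17% lower. These shares were 13.2% and 2.63% for glycolysis and the HIF response and 4.17% and 2.08% for mitochondria. They were 0% and 7.5% for lipid genes and 4.76% each way for NRF2 targets and glutathione enzymes. Ldha, lactate dehydrogenase, which β cells normally keep low, had 358 units in Pr-LP, 1397 in C4-LP, 3059 in Pr-HP and 580.3 in C4-HP (3.9-fold higher in C4-LP). It was 1 of 5 genes past 2-fold higher among 38 of glycolysis and the HIF response, with the collagen prolyl hydroxylases P4ha2 (3.78-fold) and P4ha1 (3.76-fold), Angpt2 (at least 2.93-fold) and the neuronal enolase Eno2 (2.61-fold), while the stress gene Ndrg1 was lower (2001 against 999 units, 2-fold). In mitochondria Hadh, a fatty acid oxidation enzyme that restrains insulin release, was lower (2320.3 against 704 units, 3.3-fold), and the kinases of pyruvate dehydrogenase Pdk3 (2.13-fold) and Pdk1 (2.04-fold) were higher, out of 48 genes. Of 40 lipid genes 3 were past 2-fold lower and 0 higher: Mlxipl, the stearoyl desaturase Scd1 (2516 against 909 units, 2.77-fold) and the cholesterol exporter Abca1 (410.4 against 174 units, 2.35-fold). Slc40a1, ferroportin, the iron exporter, had 1824 units in Pr-LP, 245 in C4-LP, 1078 in Pr-HP and 653 in C4-HP (7.45-fold lower). The zinc and iron importers Slc39a8 and Slc39a14 were 2.35-fold and 2.07-fold higher, and Tfrc, the transferrin receptor, was lower by the 3 control probe sets for it on each chip, with log2 ratios from -1.03 to -0.64. A further Tfrc probe set, which the study listed as lower in clone 4 cells, differed by more. Of 42 NRF2 targets and glutathione enzymes 2 were past 2-fold higher and 2 lower: Gpx3, the secreted glutathione peroxidase, had 376 units in Pr-LP, 3890.4 in C4-LP, 290.0 in Pr-HP and 276 in C4-HP (10.3-fold higher), Srxn1, sulfiredoxin, was 2.63-fold higher, Nqo1 was at least 4.49-fold lower (302 against 50.1 units; log2 -0.98 with the floor at the 40th percentile) and Gsto1 2.7-fold lower. Ddc, which turns L-DOPA into dopamine and 5-HTP into serotonin, had 4387 units in Pr-LP, 150.4 in C4-LP, 1333 in Pr-HP and 988 in C4-HP (29.2-fold lower in C4-LP). With low values raised to the floor, this was the widest ratio of all 12595 genes. Its second probe set, on chip C, had 196 against 135 units, a log2 ratio of -0.54. Gad1, which makes GABA, was also lower (231 against 46.1 units, at least 3.44-fold).

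**Figure D3:**
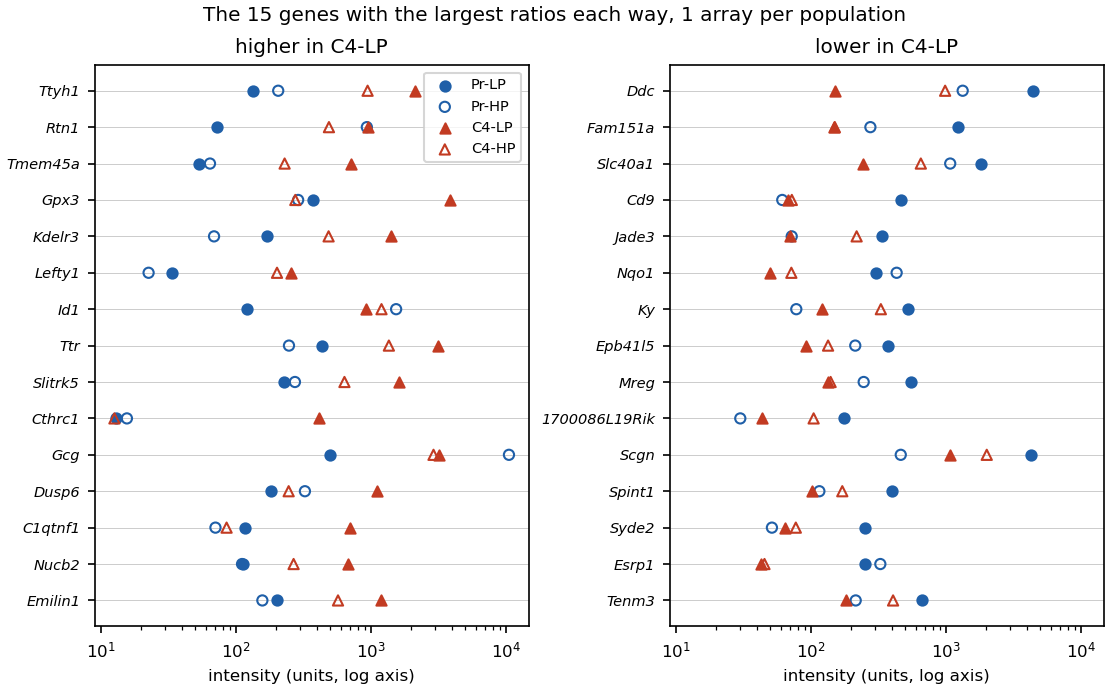
Intensity (units, log axis) in each of the 4 populations for the 15 genes with the largest ratio in each direction, 1 array per population, with circles for parental and triangles for clone 4 cells, filled at low passage and open at high passage. In Cthrc1 and Gpx3 C4-LP stands apart from the other 3 populations, in Cd9 Pr-LP does, and in Esrp1 both clone 4 arrays lie below both parental arrays.

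The 15 genes with the largest ratios each way were taken by the probe set with the largest ratio, which need not be the brightest of the gene. With low values raised to the floor, they ran from 5.90 to 15.7-fold higher and from 3.67 to 29.2-fold lower. Those not yet described include Cthrc1, a secreted collagen modifier, with 12.9 units in Pr-LP, 412 in C4-LP, 15.6 in Pr-HP and 12.6 in C4-HP, which was at least 7.02-fold higher over the floor of chip B. Tmem45a was at least 10.7-fold higher (53.6 against 718 units). Id1, a helix-loop-helix inhibitor that BMP signals induce, had 121 units in Pr-LP, 926 in C4-LP, 1541 in Pr-HP and 1201 in C4-HP (7.64-fold), so that Pr-LP alone was low. Emilin1, an elastic fibre protein, had 203 against 1198 units (5.9-fold) and the secreted C1qtnf1 117 against 701 units (6.01-fold), whose other probe sets had log2 ratios of 1.11, 0.04 and -0.16. Lefty1, a Nodal inhibitor, was 7.64-fold higher by 1 of its probe sets (33.5 against 256 units), but its brightest probe set had 2987 against 3100.3 units and its probe sets on chip A had log2 ratios of 0.61 and -0.07. Among the lower genes, Fam151a had 1225 against 149 units (8.21-fold), Jade3, a subunit of a histone acetyltransferase complex, 337 against 69.9 units (4.82-fold), Ky, known from muscle, 526 against 121 units (4.35-fold), Epb41l5 375 against 92.2 units (4.07-fold, with log2 ratios of -1.82 and 0.21 by its other probe sets), 1700086L19Rik 176 against 43.7 units (4.04-fold) and Syde2 254 against 64.7 units (3.92-fold).

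Where a gene had several probe sets, these served as a second reading of the same RNA. Of 4793 genes with at least 2 measured probe sets, 150 had any of them past 2-fold higher and 26 (0.542%) had every one, and 88 had any past 2-fold lower and 14 (0.292%) every one. By the smallest ratio among their probe sets, Ttyh1 (6.50-fold), Gcg (5.14), Slitrk5 (4.31 over 3 probe sets), Kdelr3 (3.70) and the imprinted Ndn (3.43), necdin, led the higher genes. Tenm3 (3.11-fold over 3 probe sets), Sytl4 (3.05), Mreg (2.49), the water channel Aqp4 (2.37 over 3 probe sets) and Abca1 (2.35) led the lower ones. Pdia6 and Tgoln1 of the secretory pathway were past 2-fold by 3 of 3 and 5 of 5 probe sets.

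**Figure D4:**
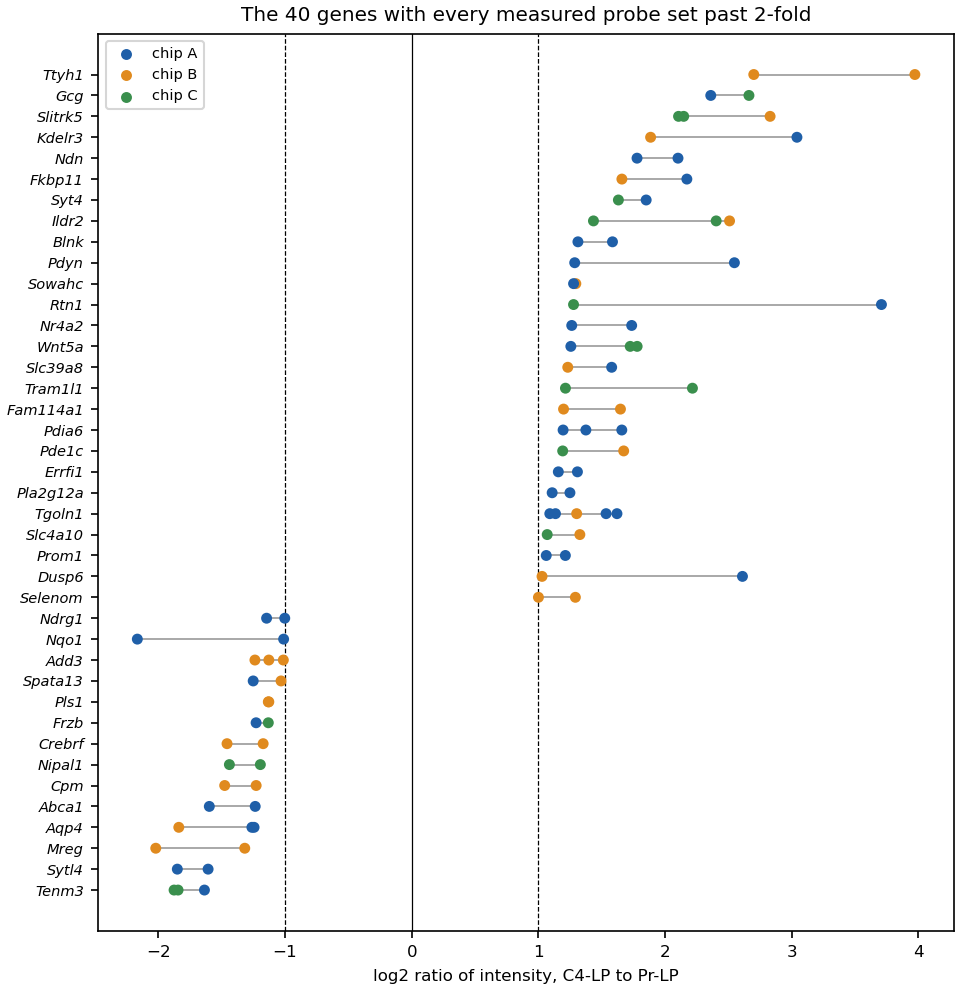
Log2 ratio of C4-LP to Pr-LP for each measured probe set (points, coloured by chip) of the 40 genes whose measured probe sets were all past 2-fold in 1 direction, with a grey line over the range of each gene. The ranges are widest for Rtn1 and Dusp6, and narrow for Sowahc and Pls1.

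The study also listed genes that differ between Pr-LP and C4-LP, but centred on those that set Pr-HP apart from the glucose-responsive populations, and these were read here between C4-LP and Pr-LP. Cd24a, a small surface glycoprotein, had 2627 against 2711 units (log2 0.05), Plagl1, an imprinted zinc finger factor, 1605 against 1605 units (log2 -0.00) and Dlk1, an imprinted Notch-related protein, 12820.3 against 15871 units (log2 0.31). Hepacam2, an adhesion protein of the immunoglobulin superfamily, was 2.21-fold lower in C4-LP (2979 against 1347 units) by the deposited values. In the study's listing of genes that set Pr-HP apart, whose values differ from the deposited ones, Hepacam2 was lower in C4-LP by less. Tmem59l, a transmembrane protein of neuroendocrine cells, was 4.03-fold higher (576 against 2324 units). Of 48 imprinted genes 2 were past 2-fold higher (4.17%), Ndn and Inpp5f. A further 3 were lower (6.25%), Ddc, Cd81 and Nnat, neuronatin (2891 against 1285 units, 2.25-fold). Over all genes these shares were 1.79% and 1.17%.

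The high-passage pair, C4-HP and Pr-HP, shares no array with the low-passage pair but differs from it in passage and in the glucose response of Pr-HP. Of the 118 probe sets past 3-fold higher in C4-LP, 99 were measured in the high-passage pair, and 53 of these (53.5%) were higher in C4-HP, where 51.1% of all measured probe sets were. Past 2-fold, 18 were higher (18.2%) and 20 lower (20.2%) in C4-HP, against 1.05% and 1.29% of all. Of the 48 lower probe sets, 36 were measured, and 15 (41.7%) were lower in C4-HP, where 48.9% of all were. Past 2-fold, 5 of the 36 were lower (13.9%) and 10 higher (27.8%). Of the 15 genes highest in C4-LP, 8 were also past 2-fold higher in C4-HP than in Pr-HP by the same probe set: Ttyh1, Tmem45a, Kdelr3, Lefty1, Ttr, Slitrk5, Nucb2 and Emilin1. Of the 15 lowest, 2 were also past 2-fold lower, Nqo1 (log2 -2.59) and Esrp1 (log2 -2.28).

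The shift of whole lists was smaller at high passage. The 150 secretory pathway genes had a median log2 ratio of 0.23 between C4-HP and Pr-HP, against 0.62 at low passage. By list the medians were 0.07 for chaperones, 0.02 for ER-associated degradation, 0.26 for translocation and glycosylation and 0.32 for receptors and coats. Cell cycle genes had a median of 0.05, with 51 of 83 above 1, epithelial genes -0.04, and ERK pathway genes -0.12. Whether the pairs differed in these shifts was not tested, since each side has 1 array.

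**Figure D5:**
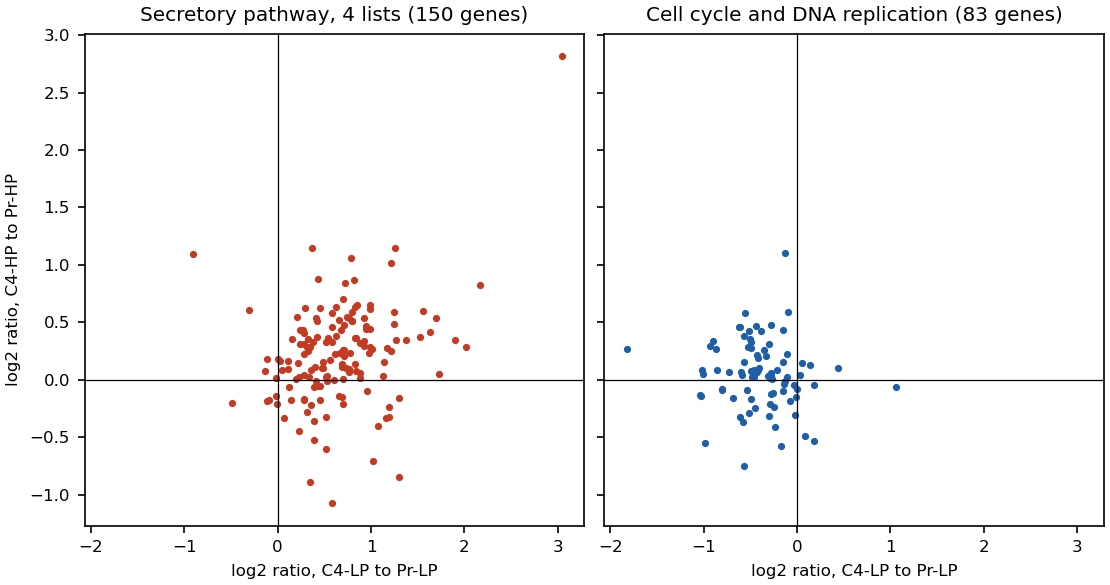
Each point is 1 gene, with its log2 ratio of C4-LP to Pr-LP on the horizontal axis and of C4-HP to Pr-HP on the vertical axis, for the secretory pathway lists (left, 150 genes) and the cell cycle list (right, 83 genes). Secretory genes lie right of 0 with a median of 0.62 and around a vertical median of 0.23, and cell cycle genes lie left of 0 and around a vertical median of 0.05.

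Markers of other cell types were read as a check on the cultures. Of the duct markers 2 of 8 were past 2-fold lower (Krt19 and Krt18), with summed levels of 3951 units in Pr-LP and 3232 in C4-LP. The summed levels of acinar markers were 2706 and 2815 units, of stromal markers 3320 and 3352, of endothelial markers 1719 and 1594, and of leukocyte markers 1173 and 1149, and among these 1 measured gene was past 2-fold, Bhlha15. The δ- and PP-cell markers summed to 1664 and 1224 units. Of these markers Rbp4 was past 2-fold lower, and Ppy, pancreatic polypeptide, had 811 against 524 units (log2 -0.63) by its brighter probe set and 361 against 118 units (3.05-fold lower) by another. Of 17 β-cell markers 10 had a probe set, Ins1 not among them, and these summed to 31446 and 33367 units. The part of α cells or of single cells with α-cell genes in the Gcg and Ttr ratios was not tested.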

How the data were processed

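Total RNA of 4 MIN6 populations was labelled with biotin and hybridised by the authors to Affymetrix U74 version 2 chips A, B and C, 12 arrays in all. The deposited values are 1 linear intensity per probe set and array. The article names Affymetrix GeneChip software for the arrays, but the settings, and any scaling between arrays, are unstated in labels and article. The study's listing of low-passage differences holds the deposited values. Its listing of genes that set Pr-HP apart holds other values for the same probe sets, and how these were obtained is unstated. The 4 arrays of a chip have nearly equal medians. Without the 198 controls among 36899 probe sets, 36701 were compared, and the platform annotation gave 1 gene symbol to 29131 of these, several to 724 and none to 6846. Intensities were compared as C4-LP over Pr-LP within a chip. For probe sets, values under 1 unit were set to 1, and the higher side had to reach 100 units. For genes, values under the chip's 20th percentile (67.3, 58.6 and 29.1 units on chips A, B and C) were raised to it, and the probe set with the highest mean of the 4 arrays stood for the gene. Where the lower side lay under the floor, the fold was computed over the floor and is written as a minimum. Named are the 15 genes with the largest ratio each way (by the probe set with the largest ratio), members past 2-fold of 28 pathway and 8 marker lists, genes with every probe set past 2-fold, β-cell markers and genes of the article. Members, lists and limits were chosen with earlier results of these data known. Alternatives were other scalings, floors, minimums, fold limits and choices of probe set. The counting of calls was checked on simulated arrays with known folds. Promoters come from RefSeq. Python 3.11.15 with pandas 2.3.3 and matplotlib 3.10.9 was used. A planned count of proteins with a KDEL-type end was not run, since no protein table was used here. The number of arrays limits the precision.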

Additional observations from a re-analysis of the deposited data

Results flagged for a closer look

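For 5 of the 30 genes with the largest ratios, clone 4 and parental cells differed by more than 2-fold in opposite directions at low and at high passage. Gcg had a log2 ratio of 2.66 between C4-LP and Pr-LP and of -1.86 between C4-HP and Pr-HP, as Pr-HP held the most proglucagon transcript of the 4 populations. Scgn, secretagogin, had -1.99 and 2.12, Ky -2.12 and 2.08, 1700086L19Rik -2.01 and 1.80, and Jade3 -2.27 and 1.60. In the last 4 genes Pr-LP was the highest and C4-HP the second highest of the populations. With 1 array for each population these differences between the pairs were not tested.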

How the results depend on the processing

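No paired analysis was possible because each population has 1 array on each chip. The median log2 ratio of a chip moved by at most 0.05 under another scaling. With the floor at the 40th percentile, 78 probe sets were past 3-fold higher and 25 lower, and 6 epithelial genes were past 2-fold lower. At a limit of 2-fold 402 probe sets were higher and 229 lower, and at 5-fold 35 and 10. At 3-fold 66 genes were higher and 26 lower. After the data were seen, lists were also read on single chips. There 2 chaperone genes were past 2-fold higher on chip B and 0 on chip C, where 10 and 2 were measured, 0 traffic genes on chip C, 7, 8 and 5 neuronal genes on chips A, B and C, and 2 and 0 epithelial genes lower on chips B and C. The medians of 7 lists kept their direction under the planned settings, and 1 turned on a single chip, ER-associated degradation on chip C (-0.03, 5 genes). None of the 30 named genes changed direction, and 2 came within 2-fold, Nqo1 and Esrp1 with the floor at the 40th percentile. Low signals under the floors have no order.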

Other observations

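Matrix and lysosomal genes also held large single differences within lists whose median lay near 0. Of 52 matrix genes 6 were past 2-fold higher in C4-LP (11.5%) and 1 lower (1.92%), around a median log2 ratio of 0.03. Over all genes these shares were 1.79% and 1.17%. Edil3, an integrin ligand, had 68 units in Pr-LP, 371 in C4-LP, 1216 in Pr-HP and 194 in C4-HP (5.45-fold), and Spock1, a testican proteoglycan, had 151 units in Pr-LP, 346 in C4-LP, 832 in Pr-HP and 155 in C4-HP (2.29-fold), while its relative Spock2 was lower (3297 against 1637 units, 2.01-fold). Of 64 genes of lysosome and autophagy 3 were past 2-fold higher (4.69%) and 0 lower, and 42 were above 1, with a median log2 ratio of 0.10. Wipi1, an autophagy protein, had 424 units in Pr-LP, 1912 in C4-LP, 1778 in Pr-HP and 448 in C4-HP (4.51-fold). The protease Ctsl had 1051 units in Pr-LP, 3561 in C4-LP, 3223 in Pr-HP and 1063 in C4-HP (3.39-fold), and Smpd1, acid sphingomyelinase, 1871 units in Pr-LP, 4034 in C4-LP, 3839 in Pr-HP and 2280.3 in C4-HP (2.16-fold). In these 3 genes C4-LP lay close to Pr-HP, and Pr-LP close to C4-HP.

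Of 57 Hedgehog, Wnt and Notch genes 3 were past 2-fold higher (5.26%, where 1.79% of all genes were), Shh (143 against 842 units, 5.9-fold), Wnt5a (61.1 against 202 units, 3.3-fold) and the Notch ligand Dner (485 against 1571 units, 3.24-fold), and 1 lower, the Wnt antagonist Frzb (246 against 105 units, 2.34-fold). Of 44 BMP, activin and TGF-beta genes 1 was higher, Id1, and 2 lower, the decoy receptor Bambi (440.4 against 194 units, 2.27-fold) and the activin receptor Acvr1c (133 against 35.7 units, at least 2.26-fold). Of 35 genes of the interferon response and antigen presentation 26 were below 1 (median log2 -0.24), 2 of them past 2-fold: B2m, the light chain of class I molecules (429.9 against 192 units, 2.24-fold), and H2-Q2 (1436 against 403 units, 3.56-fold), whose probes may share signal with related class I genes. Isg20, an interferon-induced nuclease, was higher (245 against 601 units, 2.45-fold).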
